A study of Mus musculus with 9 samples.

Results

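The comparison described here set long-term haematopoietic stem cells (LT-HSCs) of mice lacking the chemokine receptor gene Cxcr3 (Cxcr3-/-) against those of wild-type (WT) mice. It rests on 6 of the 9 libraries in the series, 3 per genotype, chosen by the genotype in their labels, and on the 11813 of 22322 genes in the table with a mean of at least 1 CPM (counts scaled to the library total) over these 6 libraries. All mice were C57BL/6, aged 6 to 8 weeks, and no treatment is named for either group. From the bone marrow of each mouse, 500 to 800 cells were sorted that carried CD150 but neither CD48 nor CD135, within the Lin- Sca-1+ c-Kit+ gate, so each library is 1 mouse. The remaining 3 libraries came from Cxcl10-/- mice, sorted in the same way, and serve below only to show where Cxcr3-/- cells differ from them. The labels do not say which part of Cxcr3 was deleted, whether the deletion was limited to any cell type, or which day or litter a mouse came from.

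CXCR3 is a receptor coupled to inhibitory G proteins that draws activated T cells and NK cells towards its ligands CXCL9, CXCL10 and CXCL11. All 3 ligands are made in response to interferon, mainly interferon gamma. LT-HSCs sit at the top of blood formation, are mostly quiescent, and are known to respond to interferon by entering the cell cycle. The question implied by the design is whether the loss of the receptor leaves a mark on the transcriptome of these cells.

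The libraries held 12098498 to 17904629 expected counts. Between 12.6% and 13.1% of the counts were mitochondrial in WT, against 10.2% to 11.2% in Cxcr3-/-. Cxcr3-/- replicates 1 and 3 stood apart from the other 4 libraries. Olfactory and vomeronasal receptor genes, a list drawn up after this was seen, took 0.325% and 0.426% of their counts against 0.0881% to 0.135% in the others, and 17576 and 18312 genes were above 0 against 14472 to 15988. Fold changes and list medians are therefore also given with Cxcr3-/- replicate 2 alone against WT where these moved by over 1.5 times. Of 12 LT-HSC markers, none was at 0 and their summed level overlapped between the groups (1713 to 1936 CPM in WT and 1740.0 to 1818 CPM in Cxcr3-/-). Kit, the stem cell factor receptor, read 545, 580.2 and 555 CPM in WT and 625, 564 and 569 CPM in Cxcr3-/-. Within-group correlations of log2 CPM had medians of 0.953 in WT and 0.933 in Cxcr3-/-, and the median between the groups was 0.934.

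Cxcr3 itself had 0, 0 and 8 expected counts in WT and 0 in all 3 Cxcr3-/- libraries. At this depth a difference was not detectable (exact permutation test over libraries, two-sided, p = 1), so the level of the gene does not check the genotype label. A count of 0 allows up to 3 counts per library.

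The ligand Cxcl10 was higher in every Cxcr3-/- library than in any WT library. It read 2.67, 5.58 and 0.168 CPM in WT and 8.27, 34.5 and 14.4 CPM in Cxcr3-/-, from 36, 84 and 3 against 112, 553 and 176 expected counts. The log2 fold change was 2.77 ± 0.95 (SE), with an edgeR adjusted p of 0.312 and an exact permutation p of 0.1, two-sided, the smallest that 3 libraries against 3 allow. Cxcl9 overlapped between the groups, at 6, 2 and 40 expected counts in WT and 44, 88 and 6 in Cxcr3-/- (exact permutation p = 0.2). Cxcl11 had at most 5 expected counts in any of the 6 libraries (exact permutation p = 0.4). Of the other genes around the receptor, Ifngr1, the ligand-binding chain of the interferon gamma receptor, was lower, at 101, 81.3 and 88.5 CPM in WT against 36.7, 51.03 and 46.8 CPM in Cxcr3-/- (log2 fold change -1.01 ± 0.21, adjusted p = 0.137). Irf1, a transcription factor induced by interferon gamma, was higher, at 48.1, 70.4 and 73.7 against 104, 118 and 103 CPM (0.76 ± 0.20, adjusted p = 0.178). The second receptor chain Ifngr2 and the kinases Jak1 and Jak2 overlapped between the groups.

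With the edgeR quasi-likelihood test and Benjamini-Hochberg adjustment, no gene reached an adjusted p under 0.05 (0 of 11813, 0% called). The smallest adjusted p was 0.074, shared by mt-Cytb, Rgs18 and Prr13. At an unadjusted p under 0.05, 610 genes were higher in Cxcr3-/- (5.16%) and 804 were lower (6.81%). Limma on log2(FPKM + 1) also called 0 genes (0%), with 1574 at an unadjusted p under 0.05. DESeq2 called 217 genes (1.84%), 56 higher and 161 lower, and gave no adjusted p for 3209 genes. All but 2 of those 217 had no overlap between the groups, which here means that all 3 values of one genotype lay above all 3 of the other on TMM-scaled CPM. By that description alone, 1103 genes were higher (9.34%) and 1052 were lower (8.91%) in Cxcr3-/-. The split depended on the scaling: deposited FPKM gave 1399 higher and 865 lower, and upper-quartile factors gave 1389 and 835, against a near even division with TMM. In the text below, "higher" and "lower" without a further word mean no overlap, and none of the genes so named passed the edgeR test. A value in brackets with ± is a log2 fold change, Cxcr3-/- against WT, with its SE.

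The 15 genes per direction with the smallest p, no overlap and a mean of at least 5 CPM in either group, predicted genes left out, ranged in fold from 1.38 for Actb to 4.78 for Ccdc152, apart from Rap1gap2, whose WT levels were near 0. Among those higher was Irgm2, an interferon-inducible GTPase of the immunity-related family, at 52.8, 61.8 and 68.7 CPM in WT and 111, 139 and 178 CPM in Cxcr3-/- (1.22 ± 0.21, edgeR adjusted p = 0.0828, DESeq2 adjusted p = 0.000119). Its lowest Cxcr3-/- value was well above its highest WT value, and the log2 fold change with Cxcr3-/- replicate 2 alone was 1.19. Runx3, a RUNX transcription factor of blood cells, read 39.4, 41.1 and 37.6 against 101, 65.2 and 90.1 CPM (1.12 ± 0.22, edgeR adjusted p = 0.137). The WT libraries of Runx3 lay within a few CPM of each other. Hdgf, a nuclear growth factor, read 118, 116 and 115 against 197, 174 and 193 CPM (0.69 ± 0.16). Mcm5, a subunit of the replicative helicase, read 83.5, 101 and 95.9 against 142, 157 and 164 CPM (0.72 ± 0.17), and the mitotic kinase Plk1 read 7.78, 13.1 and 7.27 against 25.8, 24.6 and 28.9 CPM (1.49 ± 0.35). Both differed about as much with replicate 2 alone, with log2 fold changes of 0.75 and 1.39. Mfsd2b, the sphingosine-1-phosphate exporter of red cells and platelets, was higher in all 3 (1.43 ± 0.34) but less so with replicate 2 alone (0.77). In that library alone Runx3 stood at 0.73, Ccdc152 at 0.92 against 2.26 with all 3, and Ptma at 0.31 against 0.50. Actb, Ptma, Ccdc152, the apolipoprotein L family gene Apol7e, mt-Nd3 and the ribosomal protein genes Rplp2, Rpl39 and Rps21 made up the rest. Actb, the cytoplasmic beta-actin that is often taken as a reference gene, read 1477, 1486 and 1532 CPM in WT and 2167, 1881 and 2172 CPM in Cxcr3-/-. Rap1gap2, a regulator of the small GTPase Rap1, read 0, 0.0660 and 0.224 against 10.9, 5.06 and 1.14 CPM, too few counts in WT for a fold change.

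**Figure D1:**
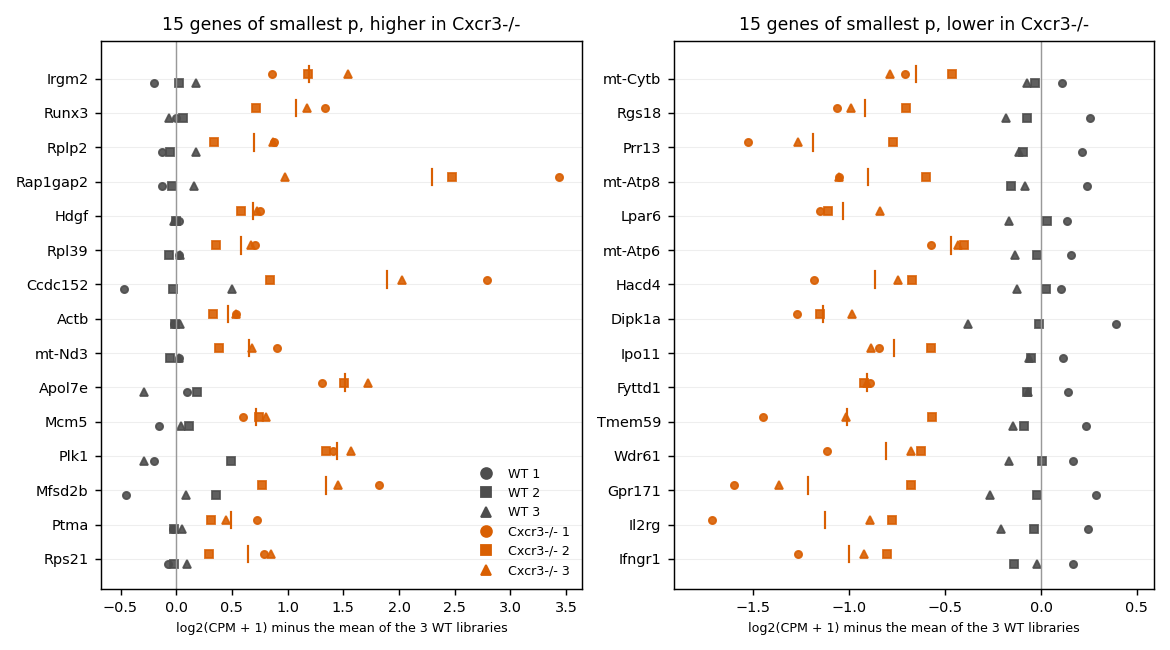
Levels in each library of the 15 genes of smallest p per direction, as log2(CPM + 1) minus the WT mean (horizontal axis); grey symbols are the 3 WT libraries, orange symbols the 3 Cxcr3-/- libraries, and the orange bar is the Cxcr3-/- mean. Orange and grey never overlap in these genes, which was a condition for showing them, and the squares of Cxcr3-/- replicate 2 often lie nearest to WT.

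Among the genes that were lower, Rgs18 came first after mt-Cytb. RGS18 switches off signals of receptors coupled to inhibitory and Gq-type G proteins in platelets and blood progenitors. It read 1773, 1414 and 1307 CPM in WT and 710.3, 913 and 748 CPM in Cxcr3-/- (-0.92 ± 0.14, edgeR adjusted p = 0.074, DESeq2 adjusted p = 6.28e-05), with -0.71 for replicate 2 alone. Prr13, a proline-rich nuclear protein, read 551, 445 and 439 against 164, 279 and 197 CPM (-1.16 ± 0.19, edgeR adjusted p = 0.074). In both genes replicate 2 was the highest of the Cxcr3-/- libraries and still well below the lowest WT library. Lpar6, a receptor for lysophosphatidic acid, read 147, 137 and 119 against 59.7, 61.3 and 74.3 CPM (-1.04 ± 0.18, edgeR adjusted p = 0.0921). Gpr171, an orphan receptor of the purinergic-like group, read 164, 132 and 112 against 43.6, 83.5 and 51.3 CPM (-1.19 ± 0.24). Il2rg, the common gamma chain of several interleukin receptors, read 334, 274 and 243 against 85.05, 163 and 151 CPM (-1.09 ± 0.22). These membrane receptors, with Ifngr1, were lower in all 3 Cxcr3-/- libraries, and replicate 1 held the lowest value of Gpr171, Il2rg and Ifngr1. Gpr171 stood at -0.70 with replicate 2 alone. Fyttd1, an mRNA export adaptor, varied little within each group, at 110.2, 95.03 and 95.3 CPM in WT and 53.3, 52.3 and 52.7 CPM in Cxcr3-/- (-0.92 ± 0.19). The import receptor Ipo11, the fatty acid elongation enzyme Hacd4, the WD-repeat protein Wdr61, Dipk1a and Tmem59 (-0.98 ± 0.20, and -0.58 with replicate 2 alone) completed the 15 together with mt-Cytb, mt-Atp8 and mt-Atp6.

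Gene lists showed how small shifts were shared. Of the 63 lists, and among those with at least 10 tested members, the largest share of higher members was among cytoplasmic ribosomal proteins, with 45 of 81 tested members higher (55.6%) and 1 lower, against 9.34% and 8.91% of all genes tested. The median log2 fold change of the list was 0.20, against 0.02 over all genes tested, and 69 of the 81 were above 0. It lay between 0.11 and 0.34 over 20 alternative settings, the lower end being Cxcr3-/- replicate 2 alone and the upper end a correction for GC content and length. Rplp2, an acidic stalk protein of the large subunit, read 614, 647 and 759 CPM in WT and 1236, 848 and 1228 CPM in Cxcr3-/- (0.71 ± 0.15). Rps21, of the small subunit, read 293, 304 and 330.1 against 534, 379 and 559 CPM (0.67 ± 0.16), and Rpl39 read 478, 449.7 and 481 against 768, 602 and 746 CPM (0.59 ± 0.13). In each of these genes Cxcr3-/- replicate 2 was the lowest of its group and still above every WT library. With that library alone they stood at 0.33, 0.29 and 0.36. Ribosomal protein genes have many processed pseudogenes, and how the counting divided reads between them is not given in the sources used here. Among 45 genes of ribosome assembly, 9 were higher (20%) and 2 lower (4.44%). Their median of 0.06 rested on single libraries: it was 0.16 with replicate 2 alone and turned sign without Cxcr3-/- replicate 2 (-0.0022) or without WT replicate 2. Among them Ubtf, a factor of RNA polymerase I, read 51.6, 50.4 and 52.7 against 94.4, 57.7 and 83.8 CPM (0.61 ± 0.22, and 0.16 with replicate 2 alone). Translation initiation factors were evenly divided, 6 higher and 6 lower of 42 (14.3% each). Eif5a, which eases elongation and termination, read 438, 487 and 481 CPM in WT and 530.1, 761 and 640.1 CPM in Cxcr3-/- (0.46 ± 0.15, and 0.70 with replicate 2 alone), whereas the initiation factor subunit Eif3m read 442, 323 and 356 against 263, 274 and 233 CPM (-0.54 ± 0.16).

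SR proteins and hnRNPs, which bind pre-mRNA and set splice site choice, were higher in 17 of 41 (41.5%) and lower in 1 (2.44%). The shares of all genes tested were 9.34% and 8.91%. The median of the list was 0.25 (0.13 to 0.33 over the settings). Hnrnpa2b1 read 1040.4, 1020.2 and 961 CPM in WT and 1645, 1190.4 and 1482 CPM in Cxcr3-/- (0.51 ± 0.13, adjusted p = 0.168). Hnrnpab read 332, 291 and 325 against 474, 404 and 475 CPM (0.51 ± 0.14), and Hnrnpa0 read 222, 188 and 212 against 330.2, 282 and 263 CPM (0.49 ± 0.15). Srsf7 went the other way, at 1337, 1215 and 1018 against 779, 989.6 and 788 CPM (-0.48 ± 0.14). With replicate 2 alone Hnrnpa2b1 stood at 0.24 and Srsf7 at -0.26. Library scores, the median over members of log2(CPM + 1) minus the WT mean, were -0.01 to 0.02 in WT and 0.35, 0.13 and 0.18 in Cxcr3-/- replicates 1, 2 and 3.

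**Figure D2:**
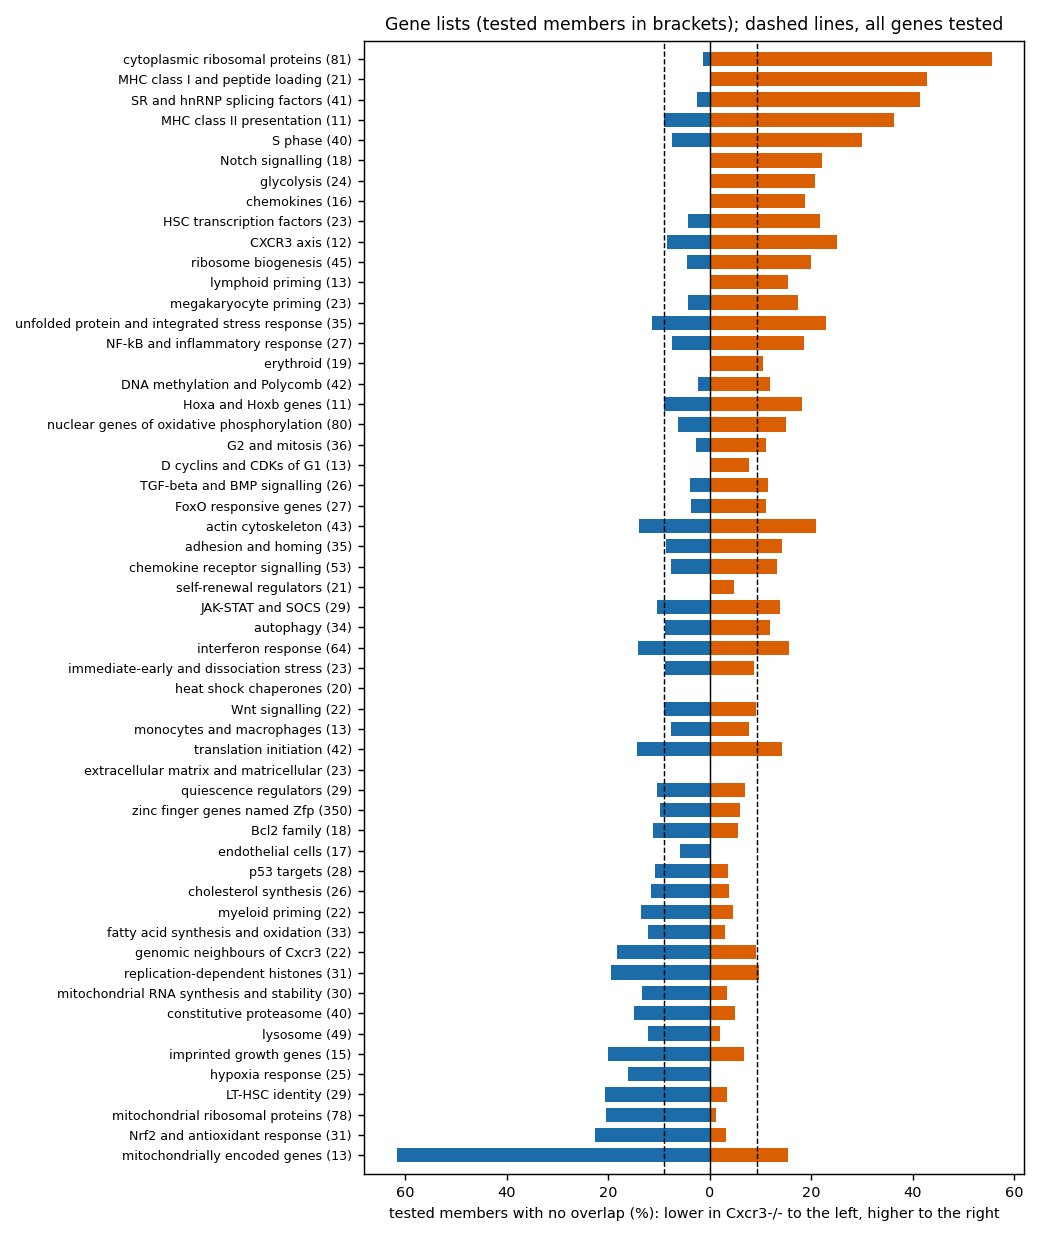
Share of the tested members of each list of at least 10 tested genes that lay above (orange, right) or below (blue, left) all WT values in all 3 Cxcr3-/- libraries, in percent, with the number tested in brackets and the shares over all genes tested as dashed lines (9.34% higher and 8.91% lower). Cytoplasmic ribosomal proteins, MHC class I and splicing factors lie farthest to the right, and mitochondrially encoded genes farthest to the left.

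The mitochondrial genome encodes 13 proteins of the respiratory chain and ATP synthase. Of these, 8 were lower (61.5%, against 8.91% of all genes tested) and 2 higher (15.4%, against 9.34%) in Cxcr3-/-. Their median log2 fold change was -0.15. On deposited FPKM 5 were lower and 2 higher, and after a correction for GC content and length 4 were lower and 5 higher. mt-Cytb, the mitochondrial subunit of complex III, read 17829, 16155 and 15699.5 CPM in WT and 10115, 11965 and 9578 CPM in Cxcr3-/- (-0.65 ± 0.10, adjusted p = 0.074). The ATP synthase genes mt-Atp8 and mt-Atp6, which overlap each other on the genome, gave -0.90 ± 0.15 and -0.47 ± 0.09. The most abundant of all, mt-Atp6, read 40684, 36049 and 33262 CPM in WT and 24504, 27672 and 27076 CPM in Cxcr3-/-. Of the cytochrome oxidase subunits, mt-Co1 read 32347, 31556 and 30112 against 22128, 26380.4 and 24104 CPM (-0.37 ± 0.08), whereas mt-Co2 and mt-Co3 differed by -0.15 each. mt-Nd3, a complex I subunit, was higher, at 236, 223 and 236 against 436, 304 and 371 CPM (0.67 ± 0.16), and so was mt-Nd6 (0.43 ± 0.14), which lies on the opposite strand from the others. Reads from the strands cannot be told apart here, since whether the counting used strand is not given in the sources used. mt-Nd1, mt-Nd2 and mt-Nd4 overlapped between the groups. With replicate 2 alone mt-Co1 stood at -0.25, mt-Co2 at -0.08, mt-Nd3 at 0.39 and mt-Nd6 at 0.26. Log2 fold changes over all genes increased with GC content (Spearman's rho across genes 0.177) and with length (0.149), and the mitochondrial genes have GC contents of 31.9% to 41.1%. After the correction for both, chosen after the data were seen, the median of the 13 turned to 0.12, mt-Cytb stood at -0.32, mt-Atp8 at -0.77 and mt-Co1 at -0.08, and mt-Co2 and mt-Co3 were above 0.

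**Figure D3:**
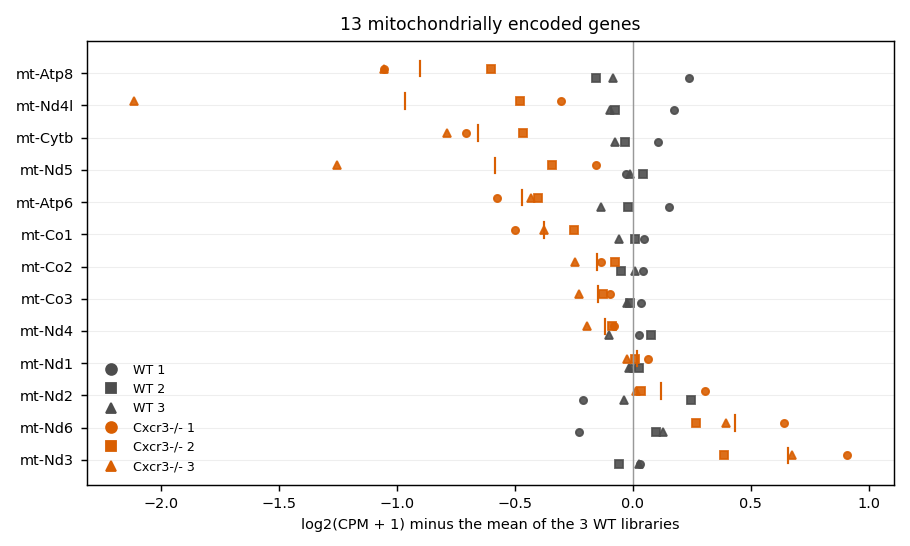
Levels of the 13 mitochondrially encoded protein genes in each library, as log2(CPM + 1) minus the WT mean (horizontal axis), with WT in grey, Cxcr3-/- in orange and the Cxcr3-/- mean as a bar. mt-Atp8 and mt-Cytb lie to the left in all 3 Cxcr3-/- libraries, and mt-Nd3 and mt-Nd6 lie to the right.

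Among nuclear genes of the mitochondrion, mitochondrial ribosomal proteins, which translate the 13 mRNAs, were lower in 16 of 78 (20.5%) and higher in 1 (1.28%). The shares of all genes tested were 8.91% and 9.34%. The median of -0.25 rested largely on 1 library. Scores were -0.49, -0.06 and -0.12 in Cxcr3-/- replicates 1, 2 and 3 against -0.07 to 0.10 in WT, and the median was -0.06 with replicate 2 alone. Mrps17, of the small mitochondrial subunit, was low in all 3, at 235, 197 and 218 CPM in WT and 126, 147 and 143 CPM in Cxcr3-/- (-0.64 ± 0.16). Nuclear genes that make and stabilise mitochondrial RNA were lower in 4 of 30 (13.3%, against 8.91% of all genes tested) and higher in 1 (3.33%, against 9.34%). Their median was -0.12 (-0.19 with replicate 2 alone). Tfam, which packages mitochondrial DNA and starts its transcription, read 117, 148 and 166 against 110.3, 110.4 and 113 CPM (-0.37 ± 0.18), and the RNA helicase gene Supv3l1 read 13.6, 14.3 and 12.2 against 4.50, 4.37 and 8.91 CPM (-1.17 ± 0.45). Of 80 nuclear genes of oxidative phosphorylation, 12 were higher (15%) and 5 lower (6.25%). These counts were 17 and 4 on deposited FPKM and 24 and 6 after the GC and length correction. Their median of -0.02 turned sign in 8 settings, to 0.10 with that correction and 0.08 with replicate 2 alone. Uqcrc1, a core protein of complex III, read 207, 190.5 and 155 against 107, 119 and 106 CPM (-0.73 ± 0.17). Glycolysis genes were higher in 5 of 24 (20.8%, against 9.34% of all genes tested) and lower in none. Their median of 0.18 stayed above 0.12 in every setting run, but the count was 3 after the GC and length correction and 7 with upper-quartile factors. The glucose transporter Slc2a3 read 32.7, 42.4 and 55.01 CPM in WT and 59.5, 60.5 and 78.8 CPM in Cxcr3-/-, and Gapdh read 535, 624 and 654 against 667, 698 and 682 CPM, a difference of 0.17 ± 0.13.

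Interferon response genes were divided between both directions. Of 64 tested, 10 were higher (15.6%), 9 were lower (14.1%) and the median log2 fold change was 0.00, which turned sign in 11 of 20 alternative settings. Irgm2 and Irf1 have been given above. Genes beyond the 4 that the naming rule allows per list are described here after their values were seen. Higher with them were the GTPase genes Iigp1 (0.84), Igtp (0.72), Gbp3 (0.70) and Gbp2 (0.42), the peptide transporter Tap1 (0.67), the immunoproteasome subunit Psmb9 (0.22), Irf9 (0.12) and Cxcl10. Iigp1 read 60.95, 81.2 and 84.5 CPM in WT and 157, 159 and 90.5 CPM in Cxcr3-/-, and Igtp read 49.8, 39.6 and 67.5 against 71.2, 102 and 86.3 CPM. The GTPases of this group act on the vacuoles of intracellular parasites and are classic targets of interferon gamma. Lower were Rtp4, a receptor transporter, at 204, 231 and 168 against 55.96, 129 and 75.2 CPM (-1.21 ± 0.26, adjusted p = 0.143), and Ifi44, at 117, 95.2 and 86.9 against 64.4, 38.9 and 32.5 CPM (-1.14 ± 0.25, adjusted p = 0.143). The double-stranded RNA kinase Eif2ak2 read 66.95, 49.9 and 76.7 against 39.5, 26.7 and 35.9 CPM (-0.92 ± 0.25). With them were Ifi35 (-0.76), Herc6 (-0.62), Oas1a (-0.54), Irgm1 (-0.49), Ifi27 (-0.48) and Bst2 (-0.45), most of them antiviral genes of the type I interferon response. Irgm1 is a relative of Irgm2 that went the other way, at 125, 141 and 129.5 against 81.7, 105 and 95.5 CPM (-0.49 ± 0.17). With replicate 2 alone, the log2 fold change of Oas1a was -0.06, that of Rtp4 -0.64, that of Gbp3 0.38 and that of Psmb9 0.41, whereas those of Irgm2, Irf1, Ifi44 and Eif2ak2 were 1.19, 0.88, -1.36 and -1.27. The receptor genes Ifnar1 and Ifnar2, the factors Stat2 and Irf7 and the antiviral genes Ifit1, Ifit3, Usp18 and Oasl2 overlapped between the groups. Over the scalings and filters run, 9 to 12 of the list were higher and 7 to 12 lower.

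Promoter sequences of genes on either side of this division are shown because both kinds carry the letter patterns known for interferon-responsive elements. They are RefSeq sequences (GRCm38.p6), read 5′ to 3′ on the gene's strand and ending 1 base before the annotated start, except for Cxcl10, which ends 120 bases before it. Capitals mark the GAAA repeat, which is GAAA, any 2 bases and GAAA again on either strand, the pattern of an interferon-stimulated response element. They also mark TTCNNNGAA, the pattern of a gamma-activated site, which reads the same on both strands. Irgm2, Igtp, Irf1 and Cxcl10 were higher in Cxcr3-/-, and Irgm1 and Oas1a were lower.
Irgm2 (chr11:58214857-58214976, plus strand): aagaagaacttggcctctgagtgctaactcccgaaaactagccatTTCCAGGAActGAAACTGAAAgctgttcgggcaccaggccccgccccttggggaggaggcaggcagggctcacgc
Igtp (chr11:58199436-58199555, plus strand): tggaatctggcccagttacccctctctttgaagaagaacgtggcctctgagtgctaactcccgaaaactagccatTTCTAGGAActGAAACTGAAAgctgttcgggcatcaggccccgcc
Irf1 (chr11:53769894-53770013, plus strand): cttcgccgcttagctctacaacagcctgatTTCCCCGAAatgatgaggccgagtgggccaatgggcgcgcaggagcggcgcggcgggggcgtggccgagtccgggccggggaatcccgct
Cxcl10 (chr5:92349009-92349129, minus strand): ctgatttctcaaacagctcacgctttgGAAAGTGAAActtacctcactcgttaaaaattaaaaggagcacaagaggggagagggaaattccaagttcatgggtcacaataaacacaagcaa
Irgm1 (chr11:48871421-48871450, minus strand): GAAATAGAAACCGAAActgattctcaattc
Oas1a (chr5:120907526-120907645, minus strand): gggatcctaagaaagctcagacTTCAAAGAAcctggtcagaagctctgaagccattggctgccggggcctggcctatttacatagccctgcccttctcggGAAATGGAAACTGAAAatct
In Irgm2 and Igtp, neighbours on chromosome 11, the TTCNNNGAA match began 75 and 45 bases before the start, followed by a GAAA repeat at 64 and 34. Irf1 had its TTCNNNGAA match at 90, and Cxcl10 its GAAA repeat at 213. Irgm1 held 2 overlapping GAAA repeats beginning 30 and 24 bases before the start, and Oas1a held 2 beginning 20 and 14 bases before it, with a TTCNNNGAA match at 98. Of the 21 interferon and MHC genes that were higher, 18 were in the promoter table, of which 5 had a GAAA repeat and 3 had TTCNNNGAA in the 250 bases before a start. Of the 10 that were lower, 8 were in the table, of which 4 had a GAAA repeat and 3 had TTCNNNGAA. Counted per promoter, a GAAA repeat stood in 22.7% and TTCNNNGAA in 13.6% of the 22 promoters of the higher genes. For the 8 promoters of the lower genes the shares were 50% and 37.5%. They were 2.79% and 5.96% for the 12079 promoters of genes tested, and 2.98% and 7.02% for all 32851 promoters. Both sets came from interferon and MHC lists, and list members that overlapped between the groups were not counted. A match is a match of letters only.

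Genes of antigen presentation were higher more often than they were lower. MHC class I and its peptide loading genes were higher in 9 of 21 (42.9%) and lower in none, with a median of 0.22 (0.17 to 0.40 over the settings). Of the 9, H2-Q4 reached the level for testing only through its Cxcr3-/- values, with means of 0.696 CPM in WT and 2.92 CPM in Cxcr3-/-. With a mean of 5 CPM as the filter 8 were higher, and after the GC and length correction 6 were. H2-K1, a classical class I heavy chain, read 1266, 1334 and 1370.5 CPM in WT and 1476, 1692 and 1603 CPM in Cxcr3-/- (0.26 ± 0.11), and H2-D1 read 514, 693 and 693 against 759, 779.7 and 746 CPM (0.27 ± 0.14). H2-Q7, a non-classical heavy chain, gave 0.58 ± 0.16 (adjusted p = 0.191), and Tapbp, the tapasin that loads peptides, read 59.6, 63.8 and 78.8 against 111, 117 and 94.9 CPM (0.68 ± 0.19). H2-Q6 and H2-Q7 are near-identical copies, so reads may have been divided between them. B2m, the light chain, overlapped, at 9284, 9066 and 8033 against 5938, 9555 and 7923 CPM. MHC class II genes were higher in 4 of 11 (36.4%, against 9.34% of all genes tested) and lower in 1 (9.09%, against 8.91%). Their median was 0.56. H2-Ab1 read 49.1, 54.99 and 62.002 CPM in WT and 83.7, 194 and 78.8 CPM in Cxcr3-/- (1.10 ± 0.30, adjusted p = 0.192), and H2-Eb1 read 14.4, 18.99 and 28.5 against 29.4, 87.01 and 44.6 CPM (1.38 ± 0.38). Replicate 2 was the highest of all 6 libraries in both, with 1.81 and 2.07 for that library alone. H2-Aa (76.1, 95.96 and 122 against 99.5, 307 and 210.2 CPM) and Cd74 overlapped, with replicate 2 again the highest. Ciita, the master activator of class II transcription, was low in all libraries, at 1.41, 0.199 and 2.46 against 3.77, 2.94 and 7.03 CPM. Ctss, a lysosomal protease that trims the invariant chain, was lower, at 28.96, 49.1 and 43.2 against 11.96, 23.1 and 28.4 CPM. The markers of B cells and dendritic cells, the other cells rich in class II, overlapped between the groups. B cell markers summed to 59.9 to 91.2 CPM in WT and 16.1 to 93.03 CPM in Cxcr3-/-, with none of the 5 at 0 in all libraries, and the 3 dendritic markers summed to at most 1.14 CPM. In pooled cells, more cells of a type and more RNA per cell cannot be told apart.

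**Figure D4:**
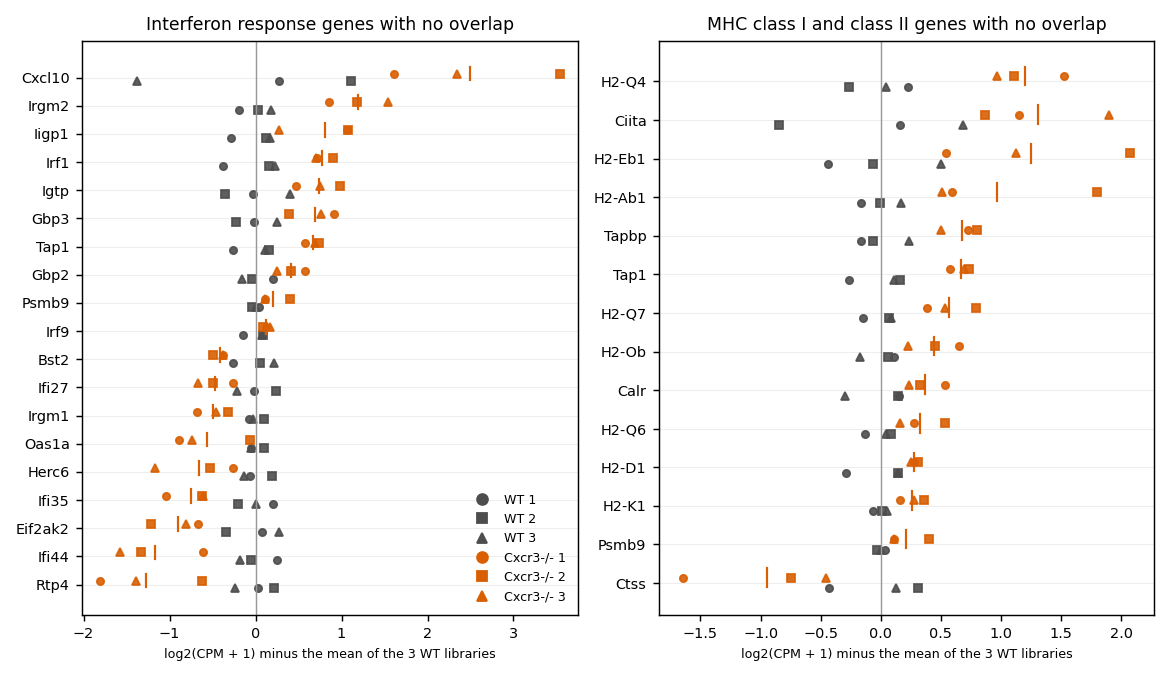
Levels in each library of the interferon response genes (left) and of the MHC class I and class II genes (right) with no overlap between the groups, as log2(CPM + 1) minus the WT mean (horizontal axis), with WT in grey, Cxcr3-/- in orange and the Cxcr3-/- mean as a bar. Cxcl10, Irgm2 and Iigp1 lead the interferon genes on the right-hand side and Rtp4, Ifi44 and Eif2ak2 those on the left; all MHC genes but Ctss lie to the right.

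Genes that carry chemokine receptor signals into the cell were higher in 7 of 53 (13.2%, against 9.34% of all genes tested) and lower in 4 (7.55%, against 8.91%). The median of 0.03 turned sign in 3 settings, to -0.06 with replicate 2 alone and -0.05 after the GC and length correction, and upper-quartile factors gave 13 higher and 4 lower. Mapk3, which encodes the kinase ERK1, read 45.03, 47.9 and 45.96 CPM in WT and 67.5, 69.3 and 104 CPM in Cxcr3-/- (0.79 ± 0.22). Gnb2, a G protein beta subunit, read 51.2, 56.1 and 65.97 against 93.3, 98.4 and 84.5 CPM (0.67 ± 0.19), and Grk2, a kinase that desensitises activated receptors, read 27.5, 41.6 and 35.6 against 52.1, 56.3 and 74.6 CPM (0.80 ± 0.25, named after its values were seen). Besides Rgs18, the regulator Rgs1, which dampens chemokine receptor signals, was lower, at 209, 210.3 and 171 against 133, 145 and 108 CPM (-0.61 ± 0.17). Of 6 chemokine receptor genes that reached the level for testing, Cxcr4 was higher. CXCR4 holds stem cells in the marrow through its ligand CXCL12, and it read 3.70, 6.84 and 5.42 against 18.1, 7.68 and 13.2 CPM (1.29 ± 0.48), with 0.53 for replicate 2 alone. Cxcr2, Ccrl2, Ccr3, Ccr9 and Ackr1 overlapped. Among 16 chemokine genes tested, Cxcl10, Pf4 and Cxcl16 were higher (18.8%, against 9.34% of all genes tested) and none was lower. Of the 16, 8 had a log2 fold change above 0 and 8 below, and 3 had a mean under 1 CPM in a group. The median of 0.18 was -0.001 with filterByExpr. Pf4, platelet factor 4, read 213, 147 and 148 CPM in WT and 232, 302 and 282 CPM in Cxcr3-/- (0.69 ± 0.18, adjusted p = 0.174).

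Stem cell genes were divided. Of 29 LT-HSC identity genes, 6 were lower (20.7%) and 1 was higher, with a median of -0.06. Pdzk1ip1 read 325, 313 and 268 CPM in WT and 187, 257 and 234 CPM in Cxcr3-/- (-0.42 ± 0.16). Ifitm1, a membrane protein that also responds to interferon, read 2637, 2522 and 2587 against 1026, 2066 and 2006 CPM (-0.60 ± 0.23), with replicate 1 far below the others. Mllt3, a regulator of stem cell maintenance, gave -0.37 ± 0.16, and the tetraspanin gene Cd63 gave -0.40 ± 0.17. Ly6a, which encodes the sorting antigen Sca-1, read 242, 288 and 275 against 153, 224 and 240.2 CPM and was lower by 0.38 on the log2 scale. With replicate 2 alone Pdzk1ip1 stood at -0.23, Ifitm1 at -0.32, Mllt3 at -0.22 and Cd63 at -0.14. Under upper-quartile factors 3 of the list were lower and 3 higher, and on log2(FPKM + 1) the median was 0.01. HSC transcription factors were higher in 5 of 23 (21.7%, against 9.34% of all genes tested) and lower in 1 (4.35%, against 8.91%). Their median was 0.19 (0.08 with replicate 2 alone). On deposited FPKM 4 were higher, and after the GC and length correction 2 were higher and 1 lower. Tal1 read 118, 155 and 158 against 209, 162 and 183 CPM (0.36 ± 0.18, and 0.17 with replicate 2 alone) and its partner Ldb1 22.4, 25.04 and 18.4 against 30.3, 30.5 and 37.7 CPM (0.58 ± 0.28). Spi1, which encodes the myeloid factor PU.1, was the transcription factor that was lower, at 23.7, 22.05 and 23.4 against 11.6, 13.8 and 14.7 CPM (-0.78 ± 0.32). Notch signalling genes were higher in 4 of 18 (22.2%, against 9.34% of all genes tested) and lower in none. After the GC and length correction 3 were higher and 1 lower. The median of the list was 0.24, which was 0.05 with replicate 2 alone and 0.13 after that correction. Among the genes of this list were the protease genes Psen2 (1.01 ± 0.33) and Adam10 (0.25 ± 0.15, and 0.11 with replicate 2 alone).

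S phase genes were higher in 12 of 40 (30%, against 9.34% of all genes tested) and lower in 3 (7.5%), with a median of 0.13 that lay between 0.08 and 0.20 over the settings and was 0.20 with replicate 2 alone. Besides Mcm5, E2f8 read 27.7, 24.4 and 21.4 CPM in WT and 47.6, 40.3 and 46.02 CPM in Cxcr3-/- (0.87 ± 0.25), and the replication licensing factor Cdt1 read 30.96, 33.6 and 33.4 against 93.4, 45.8 and 38.01 CPM (0.85 ± 0.31). Slbp, the histone mRNA binding protein, went the other way (-0.51 ± 0.16). Cdt1 stood at 0.49 and Slbp at -0.26 with replicate 2 alone. Of 36 G2 and mitosis genes, 4 were higher (11.1%, near the share of all genes tested) and 1 was lower. The median of 0.17 was 0.03 without WT replicate 1 and 0.33 without WT replicate 2. With Plk1 these were Ccnb1, at 42.1, 66.5 and 74.6 against 112, 102 and 91.1 CPM (0.73 ± 0.22), Ccna2 (0.56 ± 0.22) and the kinesin Kif2c (0.93 ± 0.41), whereas Ccnb2 was lower (-0.39 ± 0.17, and -0.22 with replicate 2 alone). The WT libraries differed among themselves in this list, with scores from -0.28 to 0.15 against 0.04 to 0.27 in Cxcr3-/-, so the groups overlapped. Of 29 quiescence regulators, 2 were higher (6.9%) and 3 lower (10.3%), both near the shares of all genes tested, so that the following are values of single genes. The cell cycle inhibitor Cdkn1b was higher, at 10.1, 15.5 and 11.6 against 30.7, 20.6 and 17.6 CPM (0.89 ± 0.35), and the inhibitors Cdkn1a (-0.97 ± 0.66) and Cdkn1c (-0.35 ± 0.33) and the pocket protein gene Rbl2 (-0.53 ± 0.20) were lower.

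**Figure D5:**
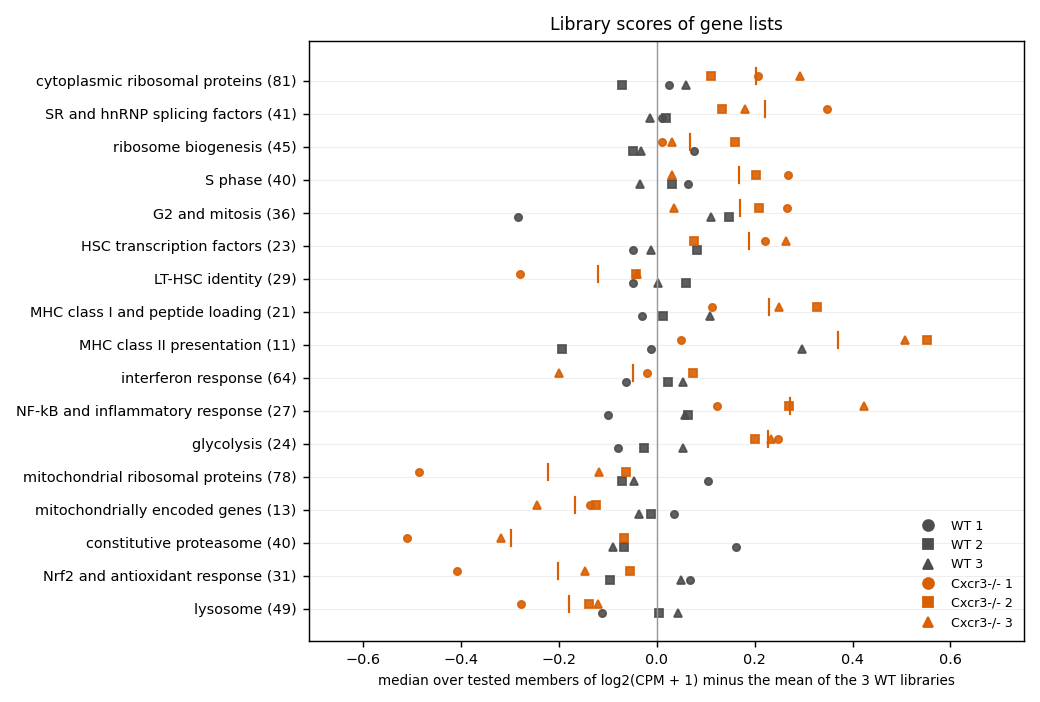
Library scores of 17 gene lists, each the median over its tested members (number in brackets) of log2(CPM + 1) minus the WT mean (horizontal axis), with WT in grey, Cxcr3-/- in orange and the Cxcr3-/- mean as a bar. Cytoplasmic ribosomal, splicing, MHC class I, NF-kB and glycolysis scores are higher in all 3 Cxcr3-/- libraries, narrowly so for MHC class I in replicate 1. Ribosome biogenesis scores overlap between the groups. Cxcr3-/- replicate 1 lies far to the left in the mitochondrial ribosomal, proteasome and antioxidant lists.

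Lists of redox defence and protein turnover followed. Nrf2 and antioxidant genes were lower in 7 of 31 (22.6%) and higher in 1, with a median of -0.18 (-0.06 with replicate 2 alone). Mgst1, a membrane glutathione transferase, read 127, 94.4 and 79.9 CPM in WT and 33.8, 64.9 and 49.6 CPM in Cxcr3-/- (-1.02 ± 0.25, adjusted p = 0.158), and the ferritin heavy chain gene Fth1 read 1922, 1507 and 1650.2 against 867, 1367 and 1157 CPM (-0.58 ± 0.16). With replicate 2 alone Mgst1 stood at -0.63 and Fth1 at -0.31. Hmox1, which breaks down haem, was low throughout, at 12.8, 4.65 and 11.8 against 2.36, 1.69 and 4.09 CPM. Constitutive proteasome genes were lower in 6 of 40 (15%, against 8.91% of all genes tested) and higher in 2 (5%, against 9.34%). Their median of -0.31 was -0.08 with replicate 2 alone and -0.14 after the GC and length correction. Psmd11, a regulatory particle subunit, read 145, 114 and 108 against 77.4, 71.1 and 83.95 CPM (-0.66 ± 0.19), and Psmd3 went the other way (1.01 ± 0.29). Lysosomal genes were lower in 6 of 49 (12.2%, against 8.91% of all genes tested) and higher in 1, with a median of -0.14 that was -0.24 without WT replicate 1 and -0.08 with upper-quartile factors. In the unfolded protein and integrated stress response, 8 of 35 were higher (22.9%) and 4 lower (11.4%). Xbp1, the factor activated by IRE1, was lower, at 137, 136 and 111 CPM in WT and 65.04, 94.1 and 56.4 CPM in Cxcr3-/- (-0.83 ± 0.21, and -0.44 with replicate 2 alone), and so was its target Dnajb9 (-0.73 ± 0.21). Atf4, the factor of the integrated stress response, was higher, at 57.5, 52.4 and 49.1 against 90.1, 76.5 and 67.6 CPM (0.56 ± 0.20).

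NF-kB and inflammatory genes were higher in 5 of 27 (18.5%, against 9.34% of all genes tested) and lower in 2 (7.41%). The median of 0.31 was 0.16 with replicate 2 alone and 0.09 without WT replicate 3. Nfkb1 read 63.8, 81.6 and 76.1 CPM in WT and 115, 99.1 and 128 CPM in Cxcr3-/- (0.63 ± 0.19), and its inhibitor gene Nfkbie read 6.81, 3.45 and 5.70 against 10.6, 11.5 and 13.8 CPM (1.17 ± 0.46). Actin cytoskeleton genes were divided, 9 higher (20.9%) and 6 lower (14%) of 43, against 9.34% and 8.91% of all genes tested. Beside Actb, Arpc5 of the Arp2/3 complex was lower, at 529, 422 and 393 against 274, 332 and 307 CPM (-0.56 ± 0.15), as was the capping protein gene Capza2 (-0.58 ± 0.16, and -0.31 with replicate 2 alone). Of the immediate-early genes, which respond to handling of the cells, Jun was low and lower still in Cxcr3-/-. It read 13.8, 13.1 and 5.14 CPM in WT and 2.95, 0.500 and 1.55 CPM in Cxcr3-/-. The list as a whole had 2 of 23 higher and 2 lower (8.7% each), near the 9.34% and 8.91% of all genes tested. Its median of 0.30 went the other way from Jun, with 15 members above 0 and 8 below. That median was 0.11 with replicate 2 alone.

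Among lineage genes, myeloid priming had 3 of 22 lower (13.6%, against 8.91% of all genes tested) and 1 higher (4.55%, against 9.34%). The median of the list was 0.02 and turned sign in 6 settings. Csf1r was higher, at 5.11, 6.64 and 0 CPM in WT and 11.96, 7.81 and 20.4 CPM in Cxcr3-/-. Its log2 fold change was 1.77, and 1.00 with replicate 2 alone. Lyz2 and Anxa1 were lower. Lyz2, which encodes lysozyme, read 926, 730.1 and 715 CPM in WT and 261, 509 and 413 CPM in Cxcr3-/- (-1.002 ± 0.21, adjusted p = 0.137), and Anxa1 gave -0.78 ± 0.17. Lyz2 stood at -0.63 with replicate 2 alone. Markers of neutrophils summed to 7.38 to 14.4 CPM in WT and 3.19 to 14.9 CPM in Cxcr3-/-, and those of monocytes and macrophages to 9.28 to 29.996 and 17.1 to 25.8 CPM, so both sums overlapped between the groups. Megakaryocyte markers were the exception, the only one of 12 marker sets whose sums did not overlap, with 189.9 to 279 CPM in WT and 291 to 372 CPM in Cxcr3-/-. All 5 markers were detected, most of the sum was Pf4, and Gp9 was higher as well (7.999, 10.3 and 6.32 against 16.02, 16.5 and 10.4 CPM), whereas Ppbp, Itga2b and Gp1bb overlapped. Their part in the level of Pf4 was not tested. The T and NK set summed to 309 to 348 CPM in WT and 162 to 348 CPM in Cxcr3-/-, nearly all of it Nkg7. Emcn, an endothelial and stem cell sialomucin, was lower (-0.84 ± 0.27), while the 9 endothelial markers together overlapped at 97.8 to 117 CPM and 72.3 to 108 CPM.

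The 22 tested genes within 2 Mb of Cxcr3 on the X chromosome were described as a group, since they lie beside the deleted gene. Of these, 2 were higher (9.09%) and 4 lower (18.2%), against 9.34% and 8.91% of all genes tested. The median of 0.10 turned sign in 4 settings, to -0.09 without Cxcr3-/- replicate 2, and was 0.02 after the GC and length correction. Il2rg was lower, as given above, and so were Pdzd11 (64.3, 76.7 and 76.8 against 25.99, 50.8 and 47.2 CPM, -0.81 ± 0.26, and -0.51 with replicate 2 alone) and Chic1 (-0.70 ± 0.36), while Nono was higher (0.32 ± 0.13). Over the whole X chromosome 5.15% of 408 tested genes were higher and 9.31% lower.

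Set against Cxcl10-/- cells in a fit on all 9 libraries, 1127 of the 11813 genes differed in Cxcr3-/- (edgeR adjusted p under 0.05, 9.54%). The Cxcl10-/- libraries had 712, 359 and 578 of the tested genes at 0, against 51 to 114 in the others. Mitochondrial counts were 3.57% to 4.13% in Cxcl10-/- and 10.2% to 13.1% in the others. How far such differences between libraries enter the values below was not tested. Both comparisons with WT use the same WT libraries, so their values are only set side by side. List medians of Cxcr3-/- against WT came from the fit on 6 libraries, and those of Cxcl10-/- against WT from the fit on all 9. mt-Cytb, lower in Cxcr3-/- than in WT, was nonetheless higher than in Cxcl10-/- by 1.79 ± 0.11 (adjusted p = 5.53e-06), and the 13 mitochondrially encoded genes had medians of -0.15 for Cxcr3-/- and -1.54 for Cxcl10-/- against WT. Prr13 was lower than in Cxcl10-/- by 1.75 ± 0.22 on the log2 scale (adjusted p = 0.00123), and Il2rg by 1.52 ± 0.23 (adjusted p = 0.00373). Of the cell cycle genes, Ccnb1 was higher in Cxcr3-/- than in Cxcl10-/- by 4.32 ± 0.88 (adjusted p = 0.0127) and E2f8 by 2.75 ± 0.46 (adjusted p = 0.00568). The G2 and mitosis list had medians of 0.17 for Cxcr3-/- and -1.61 for Cxcl10-/- against WT. Of the interferon genes, Gbp3 was higher than in Cxcl10-/- by 1.27 ± 0.35 (adjusted p = 0.0433) and Eif2ak2 lower by 1.56 ± 0.38 (adjusted p = 0.0247). For Irgm2 (0.73 ± 0.34, adjusted p = 0.206), Irf1 (0.10 ± 0.21, adjusted p = 0.812) and Rgs18 (0.12 ± 0.15, adjusted p = 0.674) the difference between the knockouts did not pass. Rplp2 differed by 0.02 ± 0.18 (adjusted p = 0.952), and cytoplasmic ribosomal proteins had medians of 0.20 for Cxcr3-/- and 0.32 for Cxcl10-/- against WT.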

How the data were processed

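Per the labels' protocols, the Discover-sc WTA Kit V2 amplified the RNA of sorted LT-HSCs, and a TruePrep kit made the libraries. The tools listed, per the submitters' processing notes, are RSEM, StringTie, HISAT2 and fastp. Genome build, annotation and use of strand: not given in the sources used here. The deposited table holds, per gene and sample, an estimated read count, which the authors gave with fractions (treated here as an expected count, from its values), and, per the file headers, the authors' FPKM. Expected counts were rounded to whole numbers. Genes with a mean of at least 1 CPM over the 6 libraries were tested with edgeR 4.0.16 (R 4.3.3, TMM factors, robust quasi-likelihood fit, Benjamini-Hochberg adjustment, threshold 0.05). Errors of log2 fold changes are SE. DESeq2 1.42.0 on counts and limma 3.58.1 on log2(FPKM + 1), computed here from the deposited FPKM, were alternatives, as were other scalings, filters, a replicate block, leaving out each library, and, added after seeing the data, a correction for GC content and length and Cxcr3-/- replicate 2 alone. Comparisons with Cxcl10-/- came from 1 edgeR fit on all 9 libraries.

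Members and lists were chosen with earlier results of these data known. Named genes are the 15 per direction of smallest p with no overlap and a mean of at least 5 CPM in either group, leaving out predicted genes, pseudogenes and antigen receptor segments, up to 4 per list with no overlap, by p, and the receptor and its ligands. Genes named beyond these were chosen after their values were seen. Libraries were 1 mouse each, so p-values measure the spread between libraries, in which mouse, sort and amplification cannot be told apart. Replicate numbers were not used to pair mice. Floors cover counting error only, since no molecular identifiers are named. Near-identical copies and overlapping or antisense genes are uncertain.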

Additional observations from a re-analysis of the deposited data

How the results depend on the processing

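The count of genes at an edgeR adjusted p under 0.05 was 0, and it was also 0 with median-of-ratios or upper-quartile factors, filterByExpr, mitochondrial genes left out, all 9 libraries, the GC and length correction and limma. It was 217 with DESeq2, 292 without a filter on low counts (45 higher and 247 lower of 20333 tested, with the median of all genes at 0.16), 5 with a mean of 5 CPM and 4 with Cxcr3-/- replicate 2 alone. Leaving out 1 library gave 0 to 173, the highest (56 higher and 117 lower) without Cxcr3-/- replicate 2, then 7 without Cxcr3-/- replicate 1 and 1 without WT replicate 2; the causes were not tested. With the replicate block 0 genes passed, the smallest adjusted p was 0.295, and 1155 genes were at an unadjusted p under 0.05 against 1414 without it. Same-numbered libraries did not deviate together (correlations of -0.073, -0.053 and 0.02), so the numbers do not pair the mice. Of the named genes, mt-Co3 (0.14), mt-Co2 (0.12) and Pcna (0.044) changed sign, each after the GC and length correction. The interferon list's median turned sign in 11 of 20 settings and the CXCR3 list's in 2. Depth limits Cxcr3, Cxcl9 and Cxcl11, at most 88 counts per library.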

Other observations

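Zinc finger genes named Zfp, mostly repressors with KRAB domains, were the largest list. Of 350 tested, 21 were higher (6%) and 34 lower (9.71%), against 9.34% and 8.91% of all genes tested, with a median log2 fold change of -0.11. Copies such as Zfp119a and Zfp119b share sequence, so reads may have been divided between them. Replication-dependent histone genes, whose mRNAs lack a poly(A) tail, were higher in 3 of 31 (9.68%, near the share of all genes tested) and lower in 6 (19.4%). Their median was -0.36. Of the 31, 6 had a mean under 1 CPM in a group. With a mean of 5 CPM as the filter 1 was higher and 4 were lower. Library scores were -0.01, -0.20 and -0.90 in Cxcr3-/- replicates 1, 2 and 3, and the median was -0.18 without replicate 3 and -0.56 without replicate 2.

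Along the genome, the share of lower genes was 13.3% on chromosome 12 and 12.3% on chromosome 13, against 8.91% of all genes tested.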
